A study of Mus musculus with 14 samples.

Results

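Hepacam2, Bcas1, Hpd, Sval1, Hgfac, Rapgef3, Mical1, Capn9, Slc25a35 and Ces1c are 10 genes of the mouse intestine that are named less often than the mucins and defensins of its secretory cells. They were picked by symbol, out of 36536 genes counted, with their levels in these libraries already known: the choice rested on the comparisons of Atoh1 knockout crypts with control crypts and of ATOH1-positive cells with control crypts. Those comparisons are therefore given for the 10 genes as description, without a test, and tests are kept for colon against ileum. RNA was sequenced from 14 libraries in 6 groups, 3 from colon and 3 from ileum. The KO groups (2 libraries per tissue) are crypts of Atoh1 lox/lox mice carrying VilCreERT2, a tamoxifen-inducible recombinase driven by the Villin promoter of the intestinal epithelium; how and when it was induced is not given in the sources used here. Crypts of the WT groups (2 per tissue) come from littermates that carry the same recombinase and 1 floxed Atoh1 allele beside 1 wild-type allele, so Cre is shared by both groups, and these mice were 6 to 8 weeks old. The GFP groups (3 per tissue) are live, GFP-positive cells of crypts, sorted from Atoh1 GFP/GFP mice, in which a working ATOH1-GFP fusion replaces ATOH1, and neither floxed alleles nor Cre are named for them. Sorting and genotype both differ between GFP and WT groups and cannot be told apart from cell type in that comparison. Mitochondrial ribosomal RNA also differed, at 30.02 to 44.88% of gene counts in sorted libraries and 0.14 to 0.22% in crypt libraries. Its part in that comparison was not tested.

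ATOH1 is a basic helix-loop-helix transcription factor that directs crypt progenitors, when Notch signalling is low, towards goblet, Paneth and enteroendocrine fates. Goblet cells fill their apex with mucin granules, and Paneth cells at the base of small intestinal crypts release defensins and lysozyme. Such cells need a large secretory pathway, calcium-regulated exocytosis and matching metabolism, so a secretory gene programme reaches beyond the secreted products themselves.

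Levels below are CPM, the gene's reads scaled to a library size corrected by TMM over the 14 libraries. Group levels are means ± SD, over n = 3 libraries for GFP and n = 2 for WT or KO. Gene totals were 8848660 to 10870416 per crypt library and 7478418 to 12991891 per sorted library. All 10 genes passed the filter on low counts in both fits. Nothing states that the libraries came from separate animals, so a p-value reflects variation among these libraries and no more. Of 8 listed colon markers 5 (Aqp8, Car1, Hoxb13, Hoxd10 and Hoxd13) were higher in every colon library than in any ileum library, Hoxb13 at 68.7 to 224 against 0 to 1.59 CPM. The other 3 were not: Car4 overlapped, Prdx6b was at most 0.17 CPM, and Ang4 averaged 98.8 CPM in colon against 2270 CPM in ileum GFP cells and 220 against 2720 CPM in WT crypts. With Ang4 in it, the summed colon list was higher in ileum GFP cells (2110 to 2560 CPM) than in colon GFP cells (364 to 927 CPM). All 7 ileum markers were higher in every ileum crypt library than in any colon crypt library, and 3 (Fabp2, Fabp6 and Sis) were so with sorted cells included. The label of a secretory, Atoh1-dependent gene fitted 7 of the 10 in both tissues by their levels, and Mical1, Capn9 and Slc25a35 went against it in part. Mical1 was lower in GFP cells than in WT crypts of both tissues, Capn9 was on average lower in colon GFP cells than in colon WT crypts, and Slc25a35 was as high in colon KO as in colon WT crypts.

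A pair of libraries stood apart. In ileum GFP 1 the 10 genes had a median of 0.47 of their mean in ileum GFP 2 and 3 (range 0.339 to 0.86), while the median over 13533 genes was 0.979. In that library 52.29% of uniquely placed reads were assigned to no feature used for counting, against 24.87 to 31.92% in the other sorted libraries. Ileum WT 2 had more tuft, immune and Paneth marker RNA than ileum WT 1: the summed markers of the 2 libraries spanned 25 to 351 CPM for tuft, 35.2 to 324 CPM for immune and 10200 to 39600 CPM for Paneth genes. The part of these differences in the results was not tested, and values without either library are given after the comparison of tissues.

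Sequence upstream of the genes is shown first, because factors of the ATOH1 family bind E-boxes, the motif CANNTG, and known forms for ATOH1 are CAGCTG and CAGATG, which both match CANNTG. RefSeq promoters on GRCm38.p6, of 300 bases each (250 before the start site and 50 after it), were matched by symbol for 8 of the 10 genes, with Bcas1 and Slc25a35 not among them. Below, the motif is in capitals within the strand of the gene, and CATCTG is CAGATG read on the opposite strand. The Sval1 stretch is chr6:41951378-41951627 (plus strand) and that of Hgfac chr5:35041259-35041508 (plus strand), each the 250 bases before the start site with no annotated exon in them. For Hepacam2 (chr6:3494512-3494541, minus strand) and Rapgef3 (chr15:97767675-97767704, minus strand) 30 bases around the match nearest upstream of the start site are shown, since annotated exons overlap the upstream window.
Sval1: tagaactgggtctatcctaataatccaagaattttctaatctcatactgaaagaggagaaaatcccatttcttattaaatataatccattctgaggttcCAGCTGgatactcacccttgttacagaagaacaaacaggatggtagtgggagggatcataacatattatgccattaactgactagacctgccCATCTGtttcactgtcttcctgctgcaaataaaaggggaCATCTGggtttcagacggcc
Hgfac: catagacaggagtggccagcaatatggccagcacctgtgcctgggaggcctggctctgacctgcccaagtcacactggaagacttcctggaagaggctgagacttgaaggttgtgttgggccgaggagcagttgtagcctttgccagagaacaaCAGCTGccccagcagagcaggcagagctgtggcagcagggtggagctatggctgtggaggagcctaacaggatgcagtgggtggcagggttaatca
Hepacam2: caaataaaccagCAGCTGctggtccatgaa
Rapgef3: ccggaccagtgcCAGCTGcagcttcgcttg
The match lies 31 bases before the start site in Hepacam2, 96 in Hgfac and 26 in Rapgef3, and in Sval1 CAGCTG lies 151 bases and CATCTG 59 and 20 bases before it.

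Searched on both strands, CAGCTG occurred in 5 of the 8 promoters (Hepacam2, Sval1, Hgfac, Rapgef3 and Mical1), against 16.3% of all 32851 promoters of this length. CAGATG occurred in 2 of 8 (Sval1 and Rapgef3), against 17.2% of all. Any CANNTG, which includes both, occurred in 7 of 8 (all but Capn9), against 72.3% of all. TATAAA, the TATA box, occurred in 2 of 8 (Hepacam2 and Mical1), against 13.6% of all. A match is a description of letters and not a bound site, and windows outside these 300 bases were not searched.

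Compared with WT, KO crypts had less RNA of nearly all 10 genes, and sorted cells had more of most. In colon, KO levels were a median of 13.1% of WT (4.8 to 103%), and in ileum a median of 3.96% (0.855 to 91.6%). Atoh1 itself was left at 10.3% of WT in colon and at 1.92% in ileum. GFP cells had a median of 2.29 times the WT level in colon (0.463 to 5.98) and 3.68 times in ileum (0.507 to 9.03). The median log2 difference from WT was −2.94 in colon KO and −4.62 in ileum KO, with 0.01 over all genes in both, and 1.18 and 1.83 in GFP cells of colon and ileum, with 0.01 and −0.06 over all genes. KO and WT libraries did not overlap for 9 of 10 genes in colon, lower in KO, where 20.1% of all genes did the same, and for 10 of 10 in ileum, where 21.8% did. GFP and WT libraries did not overlap for 8 genes higher and 1 lower in colon (32.4 and 34.7% of all genes) and for 6 higher and 1 lower in ileum (30.9 and 34%). Nothing is read from these counts, since the genes were chosen on these comparisons, and both comparisons share the WT libraries. In bulk crypts, fewer cells of a type and less RNA per cell cannot be told apart. Summed goblet markers moved along with the genes, from 10300 to 21800 CPM in colon WT to 1810 to 1890 CPM in colon KO, and from 11300 to 15400 CPM in ileum WT to 223 to 575 CPM in ileum KO. Other cell types differed too. Summed Paneth markers were 10200 to 39600 CPM in ileum WT and 1060 to 2150 CPM in ileum KO. Enteroendocrine markers were 170 to 183 CPM in ileum WT and 40.9 to 44.7 CPM in ileum KO, and 185 to 200 CPM in colon WT and 89.5 to 125 CPM in colon KO. Tuft markers were 25 to 351 CPM in ileum WT and 6.88 to 7.52 CPM in ileum KO. Summed absorptive markers were higher in KO, at 9050 to 9940 against 5820 to 6050 CPM in ileum. In colon they summed to 3730 to 4000 CPM in KO against 2140 to 3300 CPM in WT. Their sum was lower in GFP cells, at 1350 to 2310 CPM in ileum and 266 to 470 CPM in colon. Fabp2 went the other way, averaging 1270 CPM in ileum GFP against 763 in WT, and 293 against 177 CPM in colon. Sis and Apoa1 also averaged higher in colon GFP than in colon WT. In KO, Car4 averaged lower than WT in ileum, and Sis and Apoa1 did so in colon. Enteroendocrine markers were also lower in GFP cells than in WT, at 94.5 to 116 CPM in colon and 89.7 to 154 CPM in ileum, with Sct alone averaging higher. Summed goblet markers were higher in GFP cells of both tissues, but Clca1 and Fcgbp averaged lower in colon GFP than in colon WT. The part of these cell types in the values of the 10 genes was not tested.

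**Figure D1:**
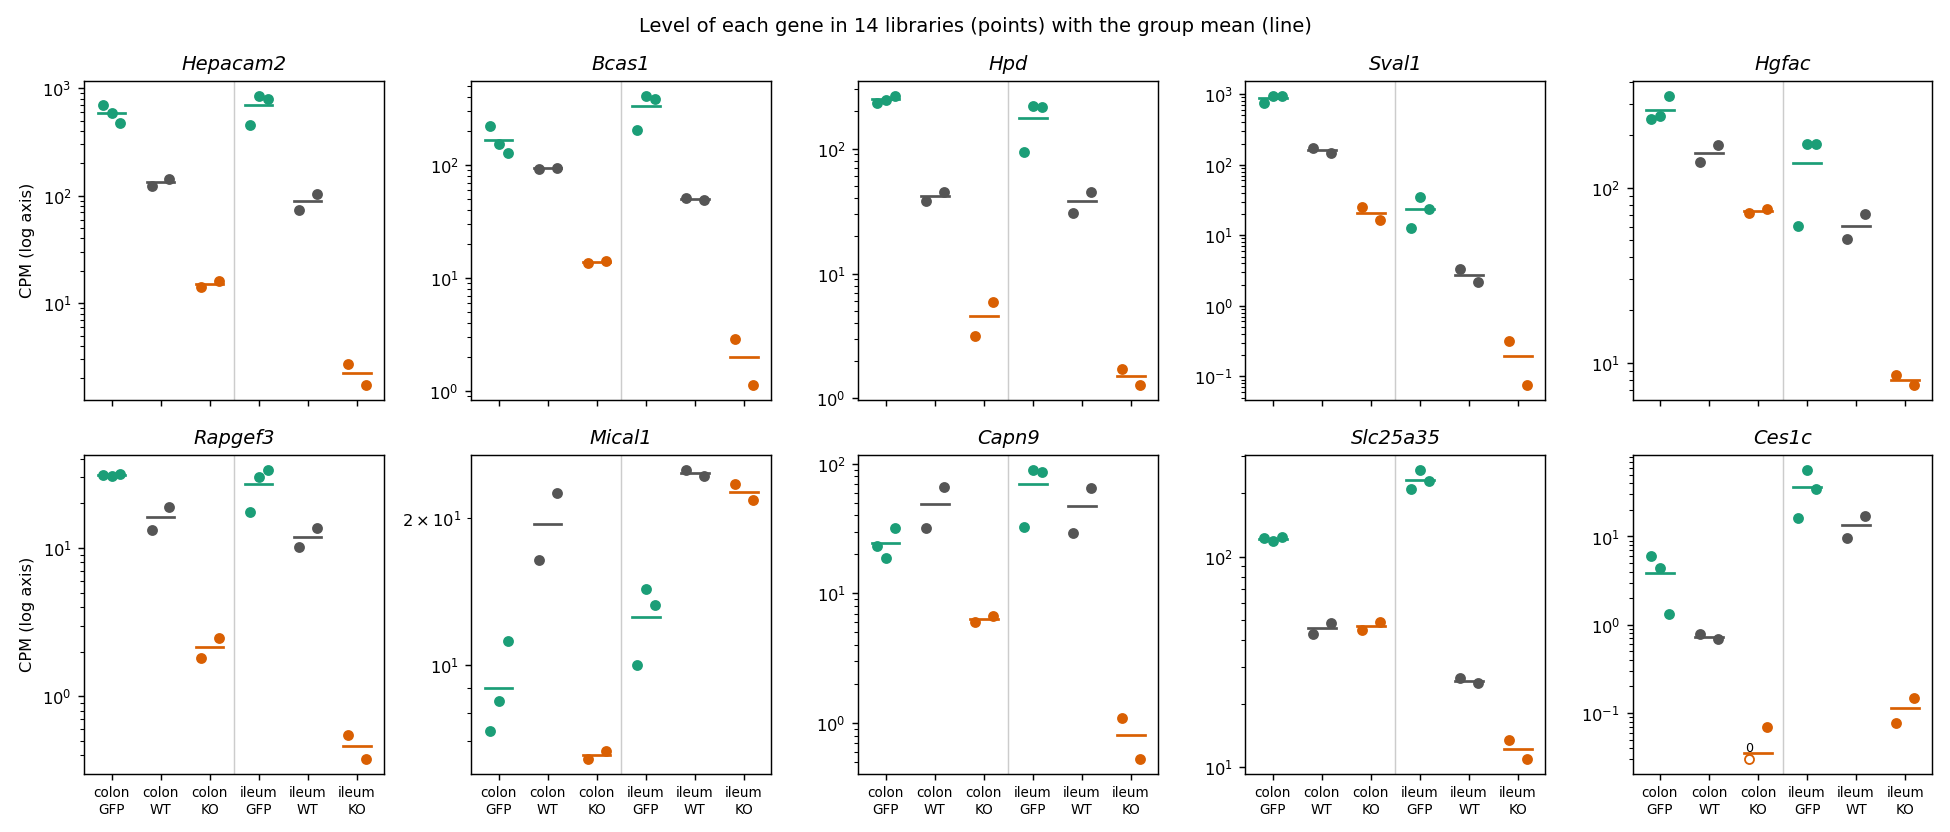
CPM (log axis) of each of the 10 genes in the 14 libraries, with points for libraries and a line for the group mean, coloured by GFP, WT and KO, and the open point marking a value of 0. Ileum KO is the lowest group for Hepacam2, Bcas1, Hpd, Sval1, Hgfac, Rapgef3, Capn9 and Slc25a35, while Mical1 is lowest in colon KO and highest in ileum WT.

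Sval1, seminal vesicle antigen-like 1, encodes a small predicted secreted protein related to prolactin-induced protein. In colon it measured 748, 959 and 938 CPM in GFP, 175 and 148 CPM in WT against 25 and 16.4 CPM in KO. In ileum it stood at 12.6, 35.1 and 23.3 CPM in GFP, 3.35 and 2.16 CPM in WT against 0.313 and 0.0752 CPM in KO. Within each tissue the 3 groups did not overlap, and the ileum GFP libraries overlapped only the colon KO libraries. Relative to WT, Sval1 was 7.84-fold lower in colon KO (log2 −2.97, SE 0.26) and 13.5-fold lower in ileum KO (log2 −3.76, SE 0.61). It was 5.47-fold and 8.58-fold higher in GFP cells of colon and ileum. The ileum KO libraries hold 5 counts of Sval1 together.

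Sval1 was the gene of the 10 with the widest gap between colon and ileum. It was 58.5-fold higher in colon than in ileum WT crypts (log2 5.87, SE 0.32, edgeR quasi-likelihood adjusted p = 9.43e-05). With only 5 counts in ileum KO, the gap was 101-fold in KO crypts (log2 6.66, SE 0.47, edgeR adjusted p = 0.000206) and 37-fold in GFP cells (log2 5.21, SE 0.35, edgeR adjusted p = 5.98e-07). It was called in each of these under every setting tried, with log2 differences of 5.61 to 6.22, 5.98 to 7.9 and 4.91 to 5.61. Per kilobase of exon Sval1 had the highest level of the 10 genes in colon GFP cells (1430 ± 189 CPM per kb) and in colon WT crypts (262 ± 31.2 CPM per kb), and in both it exceeded Atoh1, at 124 ± 15.1 and 25.3 ± 5.96 CPM per kb. Sval3, a paralog from the list of related genes, was also higher in colon than in ileum GFP cells (3.84 against 0.245 CPM, log2 3.76, SE 0.9, edgeR adjusted p = 0.0113). It was the only 1 of 3 listed relatives that could be tested.

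Hgfac encodes hepatocyte growth factor activator, a secreted serine protease that cleaves the precursor of HGF, the ligand of the receptor MET. The colon libraries had 247, 256 and 337 CPM in GFP, 140 and 175 CPM in WT against 71.5 and 76.0 CPM in KO. The ileum libraries had 60.6, 178 and 179 CPM in GFP, 50.8 and 70.8 CPM in WT against 8.52 and 7.45 CPM in KO. Colon groups were separate, whereas ileum GFP 1 fell among the ileum WT libraries. Hgfac kept 46.8% of its WT level in colon KO (log2 −1.11, SE 0.18) and 13.1% in ileum KO (log2 −2.9, SE 0.21). It was higher in colon than in ileum in WT crypts (2.61-fold, log2 1.39, SE 0.18, edgeR adjusted p = 0.00288), in KO crypts (9.04-fold, log2 3.18, SE 0.21, edgeR adjusted p = 0.000116) and in GFP cells (2.01-fold, log2 1.01, SE 0.32, edgeR adjusted p = 0.039). The difference in GFP cells was lost without colon GFP 2 (edgeR adjusted p = 0.0685), without colon GFP 3 (0.134) and with the 2 groups alone (0.0676), and without ileum GFP 1 it was 0.65 (edgeR adjusted p = 0.0222).

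Of the genes listed around HGF activation, 12 were matched by symbol. Over all genes, 0.153% were called in colon KO and 1.22% in ileum KO crypts. None of the 9 tested was called in colon KO crypts, and Habp2, a hyaluronan-binding serine protease, was the 1 called in ileum KO crypts, falling from 70.5 to 3.38 CPM (log2 −4.35, SE 0.41, edgeR adjusted p = 0.0104). That call was lost without ileum KO 1 (edgeR adjusted p = 0.132), without ileum KO 2 (0.18) and with the 2 groups alone (0.144). In colon GFP cells 1 of 10 was higher and 6 were lower than in WT crypts (22.3 and 23.6% of all genes). In ileum GFP cells 1 was higher and 5 were lower (24.6 and 28.2%). The 1 that rose was Mst1, the HGF-like ligand, from 0.216 to 3.19 CPM in colon (log2 3.94, SE 0.87, edgeR adjusted p = 0.00233). Its receptor Mst1r fell (log2 −1.47 in colon and −1.08 in ileum, SE 0.21 in both, edgeR adjusted p = 8.77e-05 and 0.000776), and so did St14, a membrane serine protease (log2 −1.18 and −1.15, SE 0.25 in both, edgeR adjusted p = 0.00162 and 0.00154). Habp2 differed between tissues in the opposite direction to Hgfac, at 2.0 CPM in colon and 94.2 CPM in ileum GFP cells (log2 −5.43, SE 0.67, edgeR adjusted p = 0.000286).

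Hepacam2 encodes an immunoglobulin-family membrane protein that has also been linked to the mitotic spindle. It had 696, 588 and 474 CPM in colon GFP, 124 and 142 CPM in colon WT and 14.2 and 16.1 CPM in colon KO. In ileum it had 452, 855 and 798 CPM in GFP, 73.3 and 104 CPM in WT against 2.74 and 1.73 CPM in KO. The order of groups was GFP above WT above KO in both tissues without overlap, and the GFP groups of colon and ileum overlapped. Hepacam2 was 8.84-fold lower in colon KO (log2 −3.14, SE 0.22) and 38.8-fold lower in ileum KO (log2 −5.28, SE 0.27) than in WT. In KO crypts it was 6.64-fold higher in colon than in ileum (log2 2.73, SE 0.27, edgeR adjusted p = 0.000796). In WT crypts the difference did not pass (log2 0.6, SE 0.2, edgeR adjusted p = 0.0843), but it did without ileum WT 2 (log2 0.89, SE 0.17, edgeR adjusted p = 0.00875). In GFP cells the difference was −0.26 (SE 0.24, edgeR adjusted p = 0.467).

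Of 14 listed immunoglobulin-family adhesion genes, 6 of the 12 tested fell and 0 rose in colon GFP cells against WT crypts, and 1 fell in ileum. Of all genes 23.6% fell and 22.3% rose in colon, and 28.2% fell in ileum. Gpa33, the A33 antigen of intestinal epithelium, fell in both (log2 −1.35 and −1.41, SE 0.26 in both, edgeR adjusted p = 0.000816 and 0.00046). The listed genes had a median log2 difference of −0.54 in colon and −0.22 in ileum. Hepacam2 was higher in GFP cells of both tissues, but it was chosen on that comparison, so nothing is read from the contrast.

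Bcas1, a gene first named in breast cancer and best known from myelin-forming oligodendrocytes, had 224, 153 and 129 CPM in colon GFP, 92.7 and 94.7 CPM in colon WT and 13.5 and 14.1 CPM in colon KO. In ileum it had 203, 414 and 382 CPM in GFP, 51.3 and 49.6 CPM in WT against 2.89 and 1.13 CPM in KO. Groups did not overlap within either tissue, and the colon GFP library 1 overlapped the ileum GFP range. Bcas1 was 6.83-fold lower in colon KO (log2 −2.77, SE 0.24) and 24.6-fold lower in ileum KO (log2 −4.62, SE 0.3). It was higher in colon than in ileum WT crypts (1.87-fold, log2 0.91, SE 0.22, edgeR adjusted p = 0.0319) and KO crypts (6.74-fold, log2 2.75, SE 0.3, edgeR adjusted p = 0.00119). In GFP cells it was lower in colon (log2 −0.98, SE 0.28, edgeR adjusted p = 0.0238), and without ileum GFP 1 this was −1.24 (SE 0.24, edgeR adjusted p = 0.00322). The WT difference was not called without colon WT 1 (edgeR adjusted p = 0.121), colon WT 2 (0.15) or ileum WT 2 (0.0544), nor in the fit of all 14 libraries (log2 0.89, edgeR adjusted p = 0.129). The GFP difference was not called without colon GFP 2 (edgeR adjusted p = 0.0856), colon GFP 3 (0.0991), ileum GFP 2 (0.0843) or ileum GFP 3 (0.0734).

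Glial cells are a known source of Bcas1, and Sox10, a transcription factor that marks them, was at most 0.506 CPM in any library. Of the glia and myelin list 7 of 10 genes were tested, and 2 rose and 1 fell in GFP cells of each tissue. Of all genes 22.3% rose and 23.6% fell in colon, and 24.6 and 28.2% in ileum. Dynll2, a dynein light chain, fell from 194 to 22.3 CPM in colon and from 226 to 25.0 CPM in ileum (log2 −3.12 and −3.18, SE 0.22 in both, edgeR adjusted p = 3.04e-07 and 1.5e-07). Of the 50-mers of the longest Bcas1 transcript, 11.95% are shared with another gene, its antisense Bcas1os1. The strand setting of the counting is not given, so reads of Bcas1, Bcas1os1 (0 to 4.89 CPM) and Bcas1os2 (0 to 13.1 CPM) cannot be told apart where they overlap.

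Rapgef3 encodes EPAC1, an exchange factor that cyclic AMP switches on to load GTP onto the small GTPase RAP1. It had 31.0, 30.6 and 31.5 CPM in colon GFP, 13.3 and 18.9 CPM in colon WT and 1.81 and 2.46 CPM in colon KO. It had 17.4, 30.3 and 33.7 CPM in ileum GFP, 10.1 and 13.6 CPM in ileum WT and 0.547 and 0.376 CPM in ileum KO. The same order without overlap was seen in both tissues, and the GFP groups of colon and ileum overlapped, as did the WT groups. Rapgef3 was 7.6-fold lower in colon KO (log2 −2.93, SE 0.3) and 24.7-fold lower in ileum KO (log2 −4.62, SE 0.36). Colon exceeded ileum in KO crypts (4.47-fold, log2 2.16, SE 0.39, edgeR adjusted p = 0.00731). The log2 difference was 0.46 in WT crypts (SE 0.26, edgeR adjusted p = 0.275) and 0.19 in GFP cells (SE 0.23, edgeR adjusted p = 0.592). Without colon KO 2 or ileum KO 2 the KO difference was not called (log2 1.92 in both, edgeR adjusted p = 0.0502 and 0.0598). Antisense Rapgef3os1 and Rapgef3os2 share 4.12% of its 50-mers and were at most 0.622 and 0.498 CPM.

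In the list of 24 genes of cyclic AMP and RAP signalling, 23 were tested and 0 were called in colon KO crypts. Of all genes 0.153% were called in colon KO and 1.22% in ileum KO. In ileum KO crypts Rap1gap, which switches RAP1 off, fell from 74.5 to 14.3 CPM (log2 −2.36, SE 0.3, edgeR adjusted p = 0.0248), a call lost without ileum KO 1 (edgeR adjusted p = 0.0798), ileum KO 2 (0.18) or with the 2 groups alone (0.168). In colon GFP cells 4 rose and 6 fell (22.3 and 23.6% of all genes). In ileum GFP cells 7 rose and 6 fell (24.6 and 28.2%). Rapgef6, another RAP exchange factor, rose in ileum GFP cells (132 against 58.6 CPM, log2 1.17, SE 0.15, edgeR adjusted p = 2.7e-05), and Adcy6, an adenylyl cyclase, fell in colon GFP cells (141 against 343 CPM, log2 −1.29, SE 0.17, edgeR adjusted p = 5.29e-05).

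Mical1, a monooxygenase that oxidises actin and so disassembles filaments, went against the other genes. Colon libraries had 7.34, 8.46 and 11.2 CPM in GFP, 16.4 and 22.5 CPM in WT against 6.43 and 6.67 CPM in KO. In ileum it had 10, 14.3 and 13.3 CPM in GFP, 25.1 and 24.4 CPM in WT against 23.5 and 21.8 CPM in KO. WT was thus highest in both tissues, KO was lowest in colon, and in ileum KO lay just under WT. It was 2.99-fold lower in colon KO (log2 −1.58, SE 0.17) and 1.07-fold lower in ileum KO (log2 −0.09, SE 0.16). Its difference of GFP cells from WT crypts was −1.12 on the log2 scale in colon and −0.97 in ileum (SE 0.22 in both). In KO crypts Mical1 was 3.53-fold lower in colon than in ileum (log2 −1.82, SE 0.17, edgeR adjusted p = 0.000558), called under every setting tried. The difference was −0.33 in WT crypts (SE 0.16, edgeR adjusted p = 0.206) and −0.49 in GFP cells (SE 0.21, edgeR adjusted p = 0.105). In GFP cells it was called without ileum GFP 1 (log2 −0.63, edgeR adjusted p = 0.0455) and without colon GFP 3 (log2 −0.67, edgeR adjusted p = 0.0464). Its exons share 905 bases with Smpd2 on the opposite strand, at 17.1 to 38.8 CPM over the libraries, so reads there cannot be assigned to either gene.

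All 13 genes around MICAL proteins whose symbols were matched were tested. In colon GFP cells 2 rose and 4 fell (22.3 and 23.6% of all genes). In ileum GFP cells 2 rose and 5 fell (24.6 and 28.2%). Ehbp1l1, an adaptor with a domain also found in MICAL proteins, fell in both tissues (log2 −3.47 and −3.14, SE 0.28 in both, edgeR adjusted p = 1.18e-06 and 1.62e-06). Rab35, a GTPase of endosomes that binds MICAL1, fell too (log2 −1.69 and −1.77, SE 0.24 in both, edgeR adjusted p = 8.56e-05 and 4.74e-05).

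Capn9 encodes a calcium-dependent cysteine protease of the digestive tract. Colon libraries had 23.4, 18.9 and 31.8 CPM in GFP, 31.7 and 66.7 CPM in WT against 6.0 and 6.74 CPM in KO. Ileum libraries had 32.5, 90.0 and 85.8 CPM in GFP, 29.4 and 65.1 CPM in WT against 1.09 and 0.526 CPM in KO. GFP and WT overlapped in both tissues, while KO lay below all others. Capn9 was 7.79-fold lower in colon KO (log2 −2.96, SE 0.53) and 56.7-fold lower in ileum KO (log2 −5.82, SE 0.69). The WT libraries themselves differed 2.1-fold in colon and 2.21-fold in ileum, with WT 2 higher in each. Without colon WT 2 the fall in colon KO was −2.32 on the log2 scale (SE 0.5), and the difference of colon GFP from WT went from −1 (SE 0.47) to −0.38 (SE 0.55).

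Between tissues, Capn9 was higher in colon than in ileum KO crypts (7.66-fold, log2 2.94, SE 0.75, edgeR adjusted p = 0.0337) and lower in colon than in ileum GFP cells (2.83-fold, log2 −1.5, SE 0.43, edgeR adjusted p = 0.0293). In WT crypts the difference was 0.08 (SE 0.47, edgeR adjusted p = 0.932). The KO difference was not called without any 1 of the 4 KO libraries (edgeR adjusted p = 0.0947 and 0.13 without colon KO 1 and 2, 0.113 and 0.174 without ileum KO 1 and 2), nor with no filter on low counts (0.121). The GFP difference was not called without colon GFP 1 (edgeR adjusted p = 0.0622), colon GFP 2 (0.0949), ileum GFP 2 (0.0868) or ileum GFP 3 (0.0791), and without ileum GFP 1 it was −1.84 (SE 0.37, edgeR adjusted p = 0.00631).

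Of 15 listed calpain genes 12 were tested. In colon GFP cells 2 rose and 3 fell (22.3 and 23.6% of all genes). In ileum GFP cells 3 rose and 4 fell (24.6 and 28.2%). Capns1, the shared small subunit, rose in both (691 against 233 CPM in colon and 535 against 233 CPM in ileum, log2 1.57 and 1.2, SE 0.27 and 0.26, edgeR adjusted p = 0.000346 and 0.00177). Capn1, a calpain found in most tissues, fell in both (log2 −1.43 and −1.77, SE 0.22 in both, edgeR adjusted p = 0.000148 and 1.98e-05). Capn8, known from stomach mucous cells, rose in ileum GFP cells (36.6 against 14.4 CPM, log2 1.34, SE 0.25, edgeR adjusted p = 0.000569) and, like Capn9, was lower in colon than in ileum GFP cells (log2 −1.53, SE 0.22, edgeR adjusted p = 0.000278).

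Hpd encodes 4-hydroxyphenylpyruvate dioxygenase, the enzyme of tyrosine breakdown that makes homogentisate and is best known from liver. It stood at 233, 248 and 267 CPM in colon GFP, 38.3 and 45.2 CPM in colon WT and 3.18 and 5.9 CPM in colon KO. In ileum it stood at 93.6, 221 and 216 CPM in GFP, 30.8 and 45.3 CPM in WT against 1.72 and 1.28 CPM in KO. The groups were separate within each tissue, and the WT groups of colon and ileum overlapped. Hpd was 9.23-fold lower in colon KO (log2 −3.21, SE 0.32) and 24.7-fold lower in ileum KO (log2 −4.63, SE 0.37). It was 5.98-fold higher in colon GFP cells (log2 2.58, SE 0.35) and 4.65-fold higher in ileum GFP cells (log2 2.22, SE 0.35). Colon exceeded ileum in KO crypts (2.96-fold, log2 1.57, SE 0.4, edgeR adjusted p = 0.0303), but not without colon KO 2 (edgeR adjusted p = 0.148), ileum KO 1 (0.101) or ileum KO 2 (0.164). The difference was 0.15 in WT crypts (SE 0.28, edgeR adjusted p = 0.773) and 0.49 in GFP cells (SE 0.28, edgeR adjusted p = 0.229).

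The other enzymes of tyrosine breakdown differed in direction in GFP cells. Of 10 listed genes 8 were tested, and 0 were called in KO crypts of either tissue. Of all genes only 0.153% were called in colon KO and 1.22% in ileum KO, so nothing is read from that 0. In colon GFP cells 3 rose and 3 fell (22.3 and 23.6% of all genes). In ileum GFP cells 2 rose and 5 fell (24.6 and 28.2%). Tat, tyrosine aminotransferase, which acts just before HPD, fell from 36.8 to 2.31 CPM in colon and from 13.5 to 0.662 CPM in ileum (log2 −4.08 and −4.41, SE 0.71 and 0.87, edgeR adjusted p = 0.000881 and 0.00159). Hpdl, a relative of HPD in mitochondria, fell as well (log2 −1.84 and −3.64, SE 0.37 and 0.41, edgeR adjusted p = 0.00124 and 1.03e-05). Pcbd1, which recycles the cofactor of phenylalanine hydroxylase, rose from 26.7 to 145 CPM in colon and from 37.4 to 157 CPM in ileum (log2 2.45 and 2.07, SE 0.24 and 0.23, edgeR adjusted p = 4.24e-06 and 9.36e-06). Fah, which performs the last step of the pathway, rose in colon (3.66 to 12.3 CPM, log2 1.75, SE 0.39, edgeR adjusted p = 0.00237).

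Slc25a35, a member of the mitochondrial carrier family, stood at 123, 119 and 124 CPM in colon GFP, 42.8 and 48.6 CPM in colon WT and 45.0 and 48.7 CPM in colon KO. In ileum it stood at 210, 259 and 229 CPM in GFP, 26.5 and 25.0 CPM in WT against 13.5 and 10.9 CPM in KO. GFP was the highest group in both tissues, colon KO and colon WT overlapped, and ileum KO lay below ileum WT. The KO difference was 0.02 on the log2 scale in colon (SE 0.13) and −1.04 in ileum (SE 0.14), while GFP cells were 2.67-fold and 9.03-fold higher than WT. Slc25a35 was higher in colon in WT crypts (1.79-fold, log2 0.84, SE 0.13, edgeR adjusted p = 0.00516) and KO crypts (3.75-fold, log2 1.91, SE 0.14, edgeR adjusted p = 0.000167). It was lower in colon in GFP cells (1.9-fold, log2 −0.93, SE 0.13, edgeR adjusted p = 0.000185), and all 3 calls held under every setting tried. Its exons share 1151 bases with Rangrf on the opposite strand, and 25.78% of its 50-mers occur in other genes, so its level carries that uncertainty. Rangrf had 0 to 0.851 CPM.

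Of 21 listed mitochondrial carriers 20 were tested, with 0 called in KO crypts of either tissue (0.153% of all genes in colon and 1.22% in ileum). In colon GFP cells 2 rose and 6 fell (22.3 and 23.6% of all genes). In ileum GFP cells 2 rose and 12 fell (24.6 and 28.2%). Slc25a20, the carnitine carrier of fatty acid oxidation, fell (log2 −2.86 and −2.61, SE 0.28 and 0.3, edgeR adjusted p = 4.88e-06 and 1.1e-05), as did Slc25a22, a glutamate carrier (log2 −2.39 and −2.87, SE 0.26 and 0.25, edgeR adjusted p = 9.57e-06 and 1.13e-06). Slc25a34, a close relative of Slc25a35, was higher in colon than in ileum GFP cells (24.2 against 1.63 CPM, log2 3.89, SE 0.45, edgeR adjusted p = 6.12e-05), the opposite direction to Slc25a35.

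Ces1c encodes a secreted carboxylesterase, an enzyme of mouse plasma that cleaves esters, drugs among them. Its level was higher in ileum than in colon in GFP cells and WT crypts. It stood at 16.3, 57.0 and 34.8 CPM in ileum GFP, 9.52 and 17.2 CPM in ileum WT and 0.0781 and 0.15 CPM in ileum KO. The colon libraries held 5.95, 4.35 and 1.34 CPM in GFP, 0.779 and 0.684 CPM in WT against 0 and 0.0703 CPM in KO. The ileum GFP and WT libraries overlapped, all others within a tissue did not. The 2 ileum KO libraries held 3 counts together against 332 in WT, a ratio of 115 (95% counting interval 38.9 to 559), and the colon KO libraries 1 count against 19, a ratio of 20.4 (3.24 to 847). Ces1c was 18-fold lower in colon than in ileum WT crypts (log2 −4.17, SE 0.47, edgeR adjusted p = 0.00148) and 9.07-fold lower in colon than in ileum GFP cells (log2 −3.18, SE 0.51, edgeR adjusted p = 0.000821). Both calls held under every setting tried, with log2 differences of −4.54 to −3.67 and −3.63 to −2.69. In KO crypts both groups were at or under 3 counts, so no fold is given, and the test did not call a difference (edgeR adjusted p = 0.425).

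Carboxylesterases are a clustered family with similar sequences, and 16.98% of the Ces1c 50-mers occur in other genes, chiefly Ces1b. Ces1b had 0.15 to 1.04 CPM, below Ces1c in the ileum GFP, ileum WT and colon GFP libraries. In colon WT crypts Ces1b stood at 1.04 and 0.547 CPM, overlapping Ces1c, and in colon KO crypts at 0.578 and 0.632 CPM, above Ces1c. The part of reads shared by these genes in the colon crypt values of Ces1c was not tested. Of 17 family members matched by symbol 11 were tested, and 0 were called in KO crypts of either tissue. Of all genes 0.153% were called in colon KO and 1.22% in ileum KO. In GFP cells 0 rose, 7 fell in colon and 6 fell in ileum. Of all genes 22.3% rose and 23.6% fell in colon, and 24.6 and 28.2% in ileum. Ces2c fell from 60.8 to 1.37 CPM in colon and from 50.8 to 0.394 CPM in ileum (log2 −5.53 and −6.86, SE 0.44 and 0.52, edgeR adjusted p = 1.78e-06 and 7.52e-07). Ces2e fell from 187 to 13.9 CPM and from 397 to 15.7 CPM (log2 −3.77 and −4.66, SE 0.49 and 0.5, edgeR adjusted p = 9.93e-05 and 1.92e-05). Ces1c lay higher in GFP cells than in WT crypts, by 5.31 times in colon and 2.7 times in ileum. It was chosen on that comparison, so no contrast with these relatives is read from it. Ces1g and Ces1d were higher in colon than in ileum WT crypts (110 against 1.4 CPM and 37.1 against 1.07 CPM, log2 6.3 and 5.11, SE 0.66 and 0.4, edgeR adjusted p = 0.00194 and 0.000364), the opposite direction to Ces1c.

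**Figure D2:**
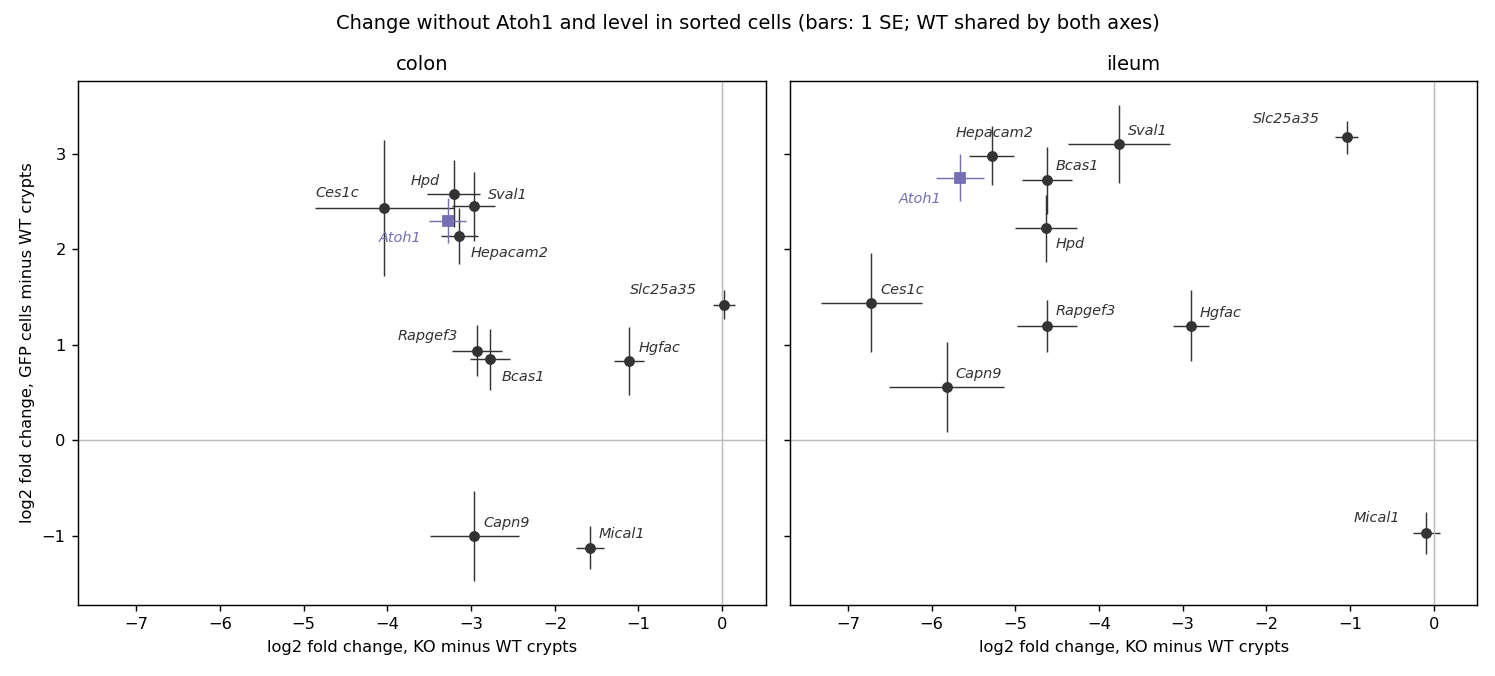
Log2 fold change of KO against WT crypts (x axis) and of GFP cells against WT crypts (y axis) in colon and ileum for the 10 genes and Atoh1 (square), with bars of 1 SE. Both axes share the WT libraries, Mical1 lies below 0 on the y axis in both panels, Slc25a35 is the gene nearest to 0 on the x axis in colon, and the fitted KO values of Ces1c rest on 1 count in colon and 3 in ileum.

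Colon was compared with ileum by a test for each gene, since that contrast did not choose the genes. The libraries are the same, however, and their KO, WT and GFP levels took part in the choice. The counts of called genes beside the share of all genes are therefore description, and nothing is read from them. In WT crypts 4 of the 10 genes were higher in colon (Bcas1, Sval1, Hgfac and Slc25a35) and 1 was lower (Ces1c), against 10.2 and 9.71% of all 14415 genes. In KO crypts 8 were higher in colon (Hepacam2, Bcas1, Hpd, Sval1, Hgfac, Rapgef3, Capn9 and Slc25a35) and 1 was lower (Mical1), against 13.1 and 12.6% of all genes. In GFP cells 2 were higher in colon (Sval1 and Hgfac) and 4 lower (Bcas1, Capn9, Slc25a35 and Ces1c), against 12.6 and 10.2% of 15274 genes. The median log2 difference of the 10 genes was 0.53 in WT crypts, 2.45 in KO crypts and −0.38 in GFP cells, with −0.01, −0.02 and 0 over all genes. Leaving out 1 library at a time gave 4 or 5 calls in WT crypts, 6 to 8 in KO crypts and 3 to 7 in GFP cells, the lowest without colon GFP 2. Without ileum GFP 1 the GFP count was 7, Mical1 being added.

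The levels left in KO crypts were higher in colon than in ileum for Atoh1 too (5.55 ± 0.495 against 0.771 ± 0.346 CPM, log2 2.81, SE 0.31, edgeR adjusted p = 0.0011). Goblet markers summed to 1810 to 1890 CPM in colon KO and to 223 to 575 CPM in ileum KO, as above. The part of either in the colon excess of the 8 genes was not tested. Whether the response to the knockout differs between tissues was not tested for these genes, because that difference is made of the comparisons that chose them. Atoh1 did not pass the test between colon and ileum in WT crypts (log2 0.42, SE 0.19, edgeR adjusted p = 0.177) or in GFP cells (log2 −0.04, SE 0.2, edgeR adjusted p = 0.901). In GFP cells Paneth markers summed to 58300 to 82600 CPM in ileum and to 162 to 2410 CPM in colon, and goblet markers to 46800 to 134000 CPM in ileum and 64700 to 70300 CPM in colon. Their part in the tissue differences of Bcas1, Capn9, Slc25a35, Ces1c, Sval1 and Hgfac was not tested.

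**Figure D3:**
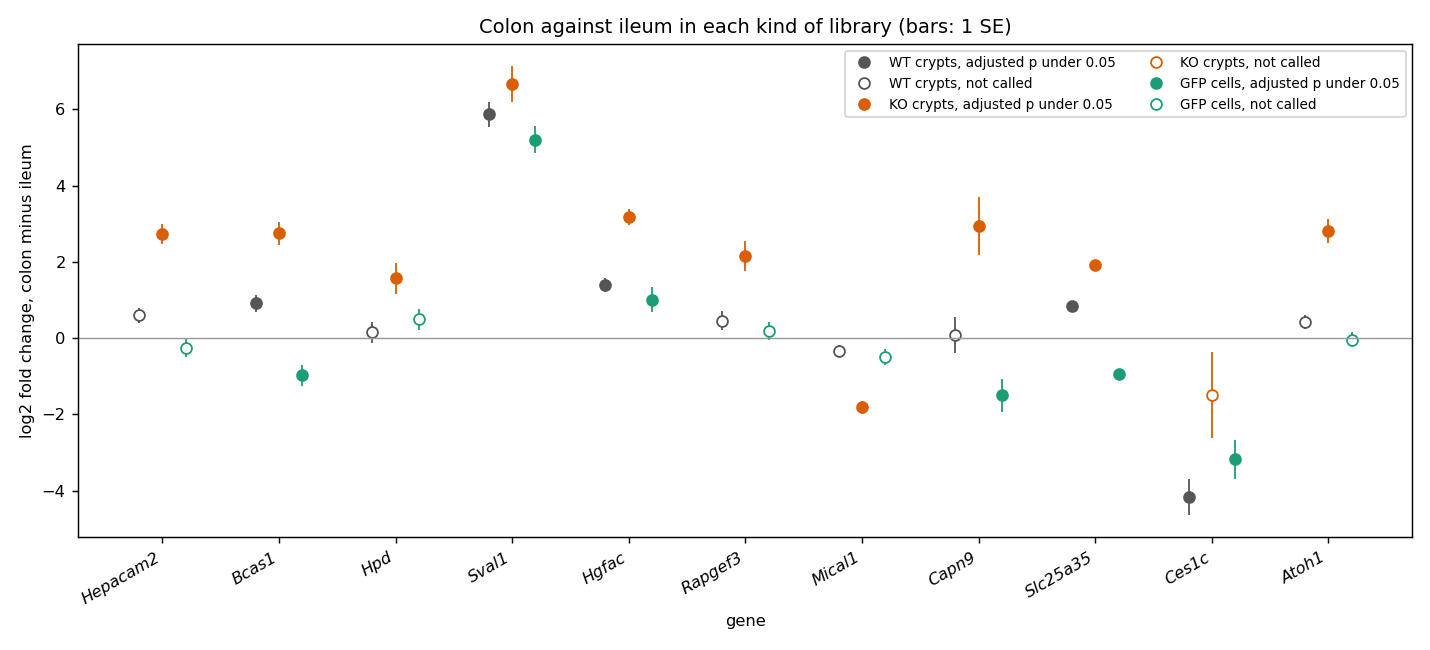
Log2 fold change of colon against ileum for the 10 genes and Atoh1 in WT crypts, KO crypts and GFP cells, with bars of 1 SE and filled points for an edgeR adjusted p under 0.05. Sval1 is above 5 in all 3 comparisons, Ces1c is below 0 in WT crypts and GFP cells while its KO point rests on 1 count against 3 and gives no direction, and Bcas1 and Slc25a35 are above 0 in crypts and below 0 in GFP cells.

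Ileum WT 2 touched some of these values. Without it the colon difference in WT crypts was 1.66 for Hgfac (SE 0.16, edgeR adjusted p = 0.000288), 5.61 for Sval1 (SE 0.37, edgeR adjusted p = 0.000158), 0.81 for Slc25a35 (SE 0.16, edgeR adjusted p = 0.0105) and −3.67 for Ces1c (SE 0.45, edgeR adjusted p = 0.000893), all still called. It was 0.77 for Capn9, 0.46 for Hpd, 0.71 for Rapgef3 and −0.34 for Mical1, none of them called (edgeR adjusted p = 0.328, 0.311, 0.139 and 0.288). The log2 difference of ileum KO from WT without that library was −4.99 for Hepacam2, −4.63 for Bcas1, −4.31 for Hpd, −4.02 for Sval1, −2.62 for Hgfac, −4.37 for Rapgef3, −0.1 for Mical1, −5.13 for Capn9, −1.07 for Slc25a35 and −6.21 for Ces1c. That of ileum GFP cells from WT was 3.25 for Hepacam2, 2.69 for Bcas1, 2.51 for Hpd, 2.82 for Sval1, 1.45 for Hgfac, 1.43 for Rapgef3, −1.01 for Mical1, 1.24 for Capn9, 3.12 for Slc25a35 and 1.92 for Ces1c.

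Leaving out ileum GFP 1 raised the GFP difference from WT in ileum for all 10 genes, to 3.23 for Hepacam2, 2.98 for Bcas1, 2.53 for Hpd, 3.4 for Sval1, 1.56 for Hgfac, 1.44 for Rapgef3, −0.84 for Mical1, 0.9 for Capn9, 3.25 for Slc25a35 and 1.79 for Ces1c. Between colon and ileum GFP cells, the difference without that library was −0.49 for Hepacam2 (SE 0.2, edgeR adjusted p = 0.1), 0.19 for Hpd (SE 0.2, edgeR adjusted p = 0.538) and −0.04 for Rapgef3 (SE 0.19, edgeR adjusted p = 0.899), none of them called with or without it. It was 4.91 for Sval1 (SE 0.3, edgeR adjusted p = 1.68e-06), −1.0 for Slc25a35 (SE 0.12, edgeR adjusted p = 0.000121) and −3.52 for Ces1c (SE 0.43, edgeR adjusted p = 0.000193), called in both fits.

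Levels can be compared between genes only per length, here CPM per kilobase of merged exons. In colon GFP cells Sval1 was followed by Hpd (117 ± 8.09), Hepacam2 (99.8 ± 18.9), Hgfac (82.2 ± 14.5), Bcas1 (44.7 ± 13.0), Slc25a35 (33.2 ± 0.713) and Capn9 (10.2 ± 2.71). Rapgef3 (4.9 ± 0.0716), Ces1c (1.67 ± 1.01) and Mical1 (1.49 ± 0.329) were lowest. In ileum GFP cells Hepacam2 came first (119 ± 37.1), with Bcas1 (88.2 ± 30.2), Hpd (83.1 ± 33.9) and Slc25a35 (63.3 ± 6.67) next, within the SD of their neighbours. Sval1 stood there at 38.5 ± 18.3 and Ces1c at 15.5 ± 8.77 CPM per kb. In ileum WT crypts the levels ran from 19.6 ± 10.5 for Capn9 to 1.87 ± 0.399 for Rapgef3. Dividing by the longest transcript in place of merged exons moved 33 of the 60 group values by more than 1 SD.

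Over the 14 libraries, the genes whose log2 CPM followed the mean of the 10 most closely, among 13072 genes with a mean of at least 1 CPM, were Rep15 (Pearson r 0.993), Atoh1 (0.993), Chrm1 (0.99), Spdef (0.99), Ccl6 (0.99), Ptprn2 (0.989), Creb3l4 (0.989), Galnt5 (0.984), Tpsg1 (0.983) and Kdelr3 (0.982). These are descriptions over points that share libraries, depth and the 6 groups, and no p is given. Taken alone, Hepacam2 was most like Atoh1 (r 0.997), Bcas1 like Rep15 (0.988), Hpd like Kdelr3 (0.99), Rapgef3 like Ptprn2 (0.994) and Capn9 like Clca1 (0.989). Sval1 was most like Gpr20 (0.981), Hgfac like Rab3d (0.985), Slc25a35 like Ets2 (0.98), Ces1c like Epb42 (0.976) and Mical1 like Pfkfb3 (0.861). Among the 10, Hepacam2 and Bcas1 had an r of 0.99 and Hepacam2 and Hpd 0.99, Sval1 and Ces1c 0.21, and Mical1 ranged from −0.55 with Sval1 to 0.14 with Ces1c.

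Over all the related lists, 139 genes were matched, and 114 were tested in crypts and 117 with GFP cells. In colon KO crypts edgeR called 0 of 114 (8 at an unadjusted p under 0.05; DESeq2 called 2 higher and 1 lower), where 0.153% of all genes were called. In ileum KO crypts 2 were called, both lower, where 1.22% of all genes were called. In GFP cells 17 of 117 were higher and 42 lower than in WT crypts of colon, against 22.3 and 23.6% of all genes, and 19 were higher and 45 lower in ileum, against 24.6 and 28.2% of all genes. Between colon and ileum 21 of 114 were higher in colon and 9 lower in WT crypts, against 10.2 and 9.71% of all genes. In KO crypts 22 of 114 were higher and 10 lower, against 13.1 and 12.6%, and in GFP cells 27 of 117 were higher and 16 lower, against 12.6 and 10.2%.

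**Figure D4:**
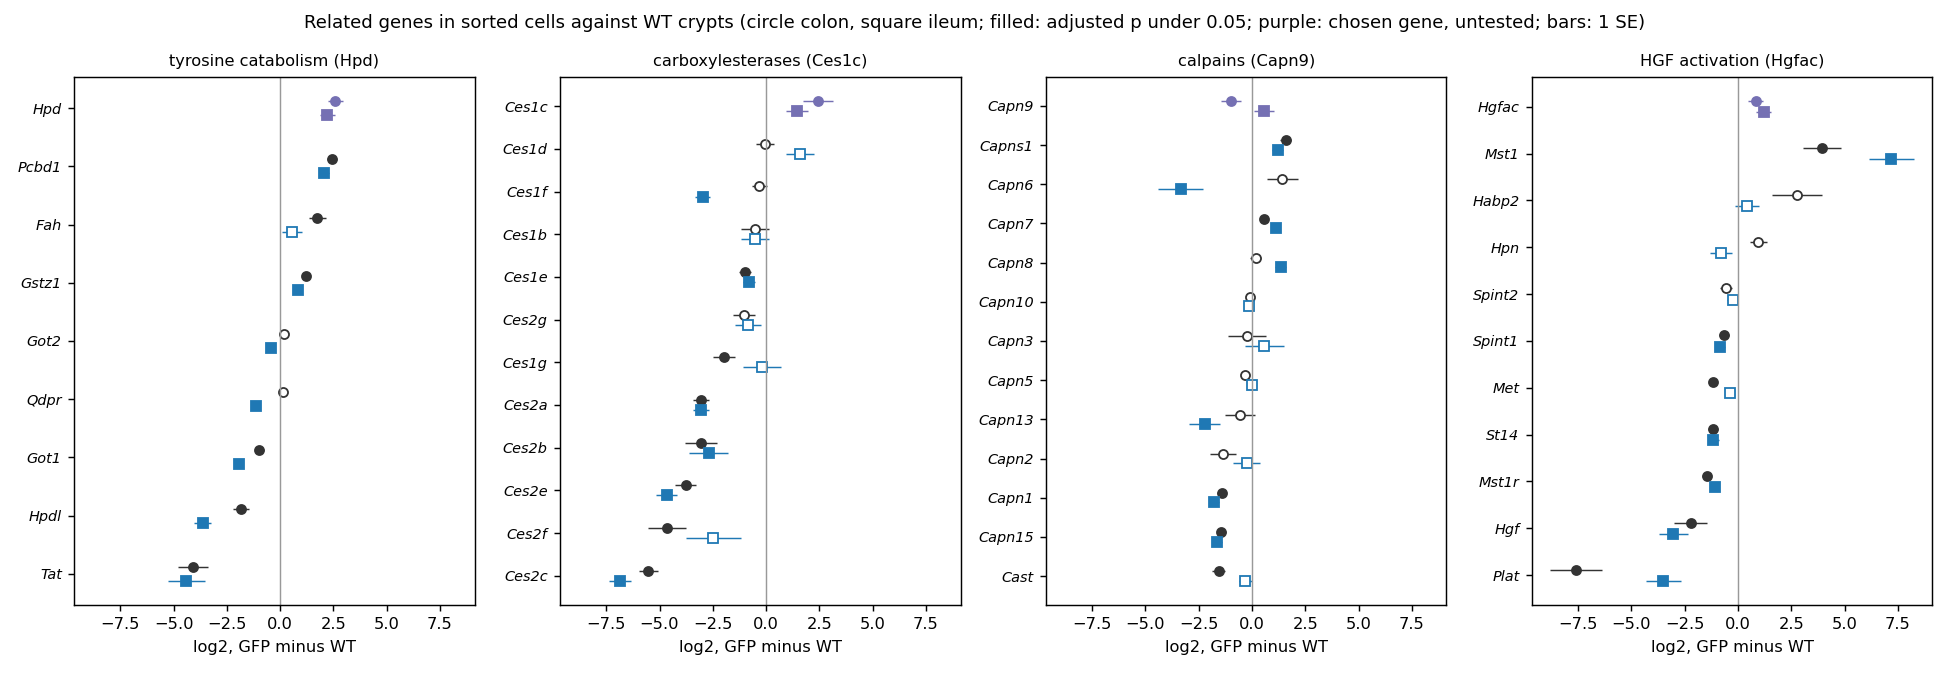
Log2 fold change of GFP cells against WT crypts for genes listed with Hpd, Ces1c, Capn9 and Hgfac, in colon (circles) and ileum (squares), with bars of 1 SE, filled points for an edgeR adjusted p under 0.05 and the chosen gene of each list in purple and untested. Hpd and Ces1c, which were chosen on this comparison, lie above 0 in both tissues. Tat, Hpdl, Ces2a, Ces2c and Ces2e lie below 0 in both, and nothing is read from the contrast with the chosen genes.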

How the data were processed

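RNA from 14 mouse libraries in 6 groups was analysed, with groups and replicate numbers taken from the labels. The deposited values are whole-number counts of reads per Ensembl gene, 1 table per library and not normalized. Per the submitters' processing notes, the authors used TopHat 1.4.1 for alignment, HTSeq for counting and the mm9 build. Which HTSeq version, annotation and strand option they chose is not given in the sources used here. Of 36536 genes 31004 received a symbol by Ensembl ID from GENCODE M21. That annotation is on GRCm38, so it gave names, exon lengths, overlaps and shared 50-mers, and the promoters of RefSeq gave sequence on GRCm38.p6. HTSeq's summary lines entered neither library sizes nor tests: no-feature reads made up 9.3 to 13.25% of uniquely placed reads in crypts and 24.87 to 52.29% in sorted cells. Mitochondrial ribosomal RNA took 30.02 to 44.88% of gene counts in sorted cells and 0.14 to 0.22% in crypts. No replicates were identical, and the chi-square per gene between them was 11.17 to 92.93, above counting noise.

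Tests used the robust quasi-likelihood F-test of edgeR 4.0.16 (limma 3.58.1, R 4.3.3) with TMM scaling, filterByExpr by group and Benjamini-Hochberg adjustment over all genes tested. Genes were called at an adjusted p under 0.05. Crypt comparisons were fitted on 8 crypt libraries (14415 genes, biological coefficient of variation 0.2), and those with GFP cells on all 14 (15274 genes, 0.23). Counting intervals are exact at 95% and cover counting error only; no fold is given where both groups hold at most 3 counts. The genes and the lists of related genes were chosen with earlier results of these data known. Related genes were named by rule: per list and comparison, up to 4 called genes by size of change and up to 2 others by mean CPM, plus relatives that could share reads; the text names some of these. Likeness was Pearson r of log2 CPM (prior count 1), and the 10 genes most like the mean of the chosen genes are named. Alternatives were DESeq2 size factors, scaling without the genes that exceed 1% of counts, dropping the filter on low counts, the Wald test of DESeq2 1.42.0, a block for replicate number, a fit of just the 2 groups compared, all 14 libraries for crypts, and each library left out. The procedure was tested on simulated data.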

Additional observations from a re-analysis of the deposited data

How the results depend on the processing

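All 7 counts of called genes stayed within 1.5 times under DESeq2 size factors and under library sizes without genes above 1% of counts. In colon KO against WT crypts 22 genes were called, 56 with no filter on low counts, 157 with the DESeq2 test, 102 with the 2 groups alone and 73 with all 14 libraries. In ileum KO against WT crypts 176 were called, 508 with DESeq2, 4 with the 2 groups alone and 265 with all 14 libraries. Between colon and ileum 2872 genes were called in WT crypts (1213 with the 2 groups alone, 1836 with all 14 libraries), 3699 in KO crypts (2395 with all 14 libraries) and 3471 in GFP cells (2147 with the 2 groups alone). The cause of these shifts was not tested. Leaving out 1 library at a time gave 0 to 14 calls for colon KO, 11 to 1403 for ileum KO, 4185 to 6993 for colon GFP cells against WT (7005 with all), 5981 to 7957 for ileum GFP cells against WT (8059 with all), 1289 to 3544 for tissue in WT crypts, 1603 to 2044 in KO crypts and 2416 to 3960 in GFP cells. The extremes came without colon KO 1 or 2 (0 calls each, with 795 and 623 genes at an unadjusted p under 0.05), without ileum KO 2 (11) and without ileum WT 1 (1403). Of the 10 genes, 4 to 5 were called between tissues in WT crypts, 6 to 8 in KO crypts and 3 to 7 in GFP cells, the 3 being without colon GFP 2. For the 10 genes, 26 single results between tissues lost their call and 4 gained one over all settings, and none changed sign among those called. Of the untested differences from WT, 16 moved by more than 1 SD. Among the related genes 967 results kept direction and call, 31 lost the call and 1 turned: Capn13 in ileum GFP cells against WT, at −2.23 (SE 0.73, edgeR adjusted p = 0.0273), was 0.45 without ileum WT 2 (edgeR adjusted p = 0.218) and −3.13 without ileum WT 1.

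Nothing in the labels says that a replicate number marks a shared animal or batch, and each crypt comparison has only 2 pairs. The deviations of same-numbered colon and ileum libraries correlated at 0.26 in KO, 0.23 in WT and −0.03, −0.1 and 0.07 in GFP, and those of KO and WT at −0.02 in colon and 0.07 in ileum. With the replicate number as a block 30 genes were called in colon KO and 201 in ileum KO, and 5, 9 and 6 of the 10 genes between tissues in WT, KO and GFP. With the number as a block within genotype, Hepacam2 was called in WT crypts (log2 0.62, edgeR adjusted p = 0.031) and Bcas1 was not called in GFP cells (log2 −0.96, edgeR adjusted p = 0.0793). Depth limits Ces1c in KO crypts, where 4 libraries hold 4 counts in all, and Sval1 in ileum KO crypts.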
